A study of Sparassis latifolia with 15 samples.

Results

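Gglean002445 and Gglean008392 were the genes that were on in dark mycelium and off in primordia of Sparassis latifolia, the cauliflower mushroom. They were chosen from their RNA-seq levels as genes with at least 3 CPM in all 3 libraries of dark mycelium and below 1 CPM in all 3 libraries of primordia, where CPM is the count of a gene as a share of the total count of its library, given per 1000000 counts. Only 2 of the 11118 genes present in both deposited count tables met this rule. A list of 30 genes that the study took as changed in both its assays, with codes that begin with U for raised and D for lowered genes, was left out of the choice, although 0 of them met the thresholds.

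All libraries came from strain SP-C grown in cultivation bags of the mushroom industry, with 3 biological replicates per group. The D group was mycelium kept in darkness until day 28. The L group was such mycelium after 1 h of white light, which the labels date to day 30. The P group was primordia that formed under a daily cycle of light and dark, dated to day 42. ATAC-seq of 2 replicates per group was part of the study and was not used here, because no annotation at hand places the gene IDs on contigs.

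The vegetative mycelium of a wood-decaying mushroom grows through its substrate and feeds on it, and a primordium is the first compact knot of hyphae from which a fruiting body develops. In S. latifolia light is needed for this step. In many fungi blue light is sensed by white collar proteins, and small secreted proteins, the hydrophobins, coat aerial hyphae and fruiting bodies. No function can be given for either gene, since the count tables hold IDs only. The gene table at hand describes a strain other than SP-C, and 0 of 11204 IDs were found in it. In these bulk samples, fewer cells that express a gene and less RNA of it per cell cannot be told apart.

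The total count of a library was between 20798190 and 27706995, so that 3 counts stood for 0.108 to 0.144 CPM. Genes known from the study were used to check the labels. U10 (Gglean005727), a hydrophobin precursor named fruiting body protein SC4, stood at 53.9, 34.3 and 218 CPM in D, at 389, 5540 and 2485 CPM in L and at 1690, 14984 and 1689 CPM in P. U15 (Gglean010591), the blue light receptor white collar 1, had 88.5 to 108 CPM in the dark, 213 to 434 CPM after light and 233 to 1067 CPM in primordia. The study chose U10 and U15 on these libraries, so that they are no independent check.
Light replicate 2 (L2) and primordia replicate 2 (P2) stood apart from the others of their groups. The correlation of log CPM across genes was 0.964 between L2 and P2, 0.966 between L2 and L3 and 0.925 between L2 and L1. P2 correlated at 0.934 with P1 and 0.901 with P3, and the D libraries at 0.967 to 0.979 with each other. GAPDH (Gglean007906), the glycolytic enzyme that the study used as a reference gene, was at 891 CPM in L2 and 651 CPM in P2 and at 1958 to 4385 CPM in the other 7 libraries. Fold changes that use the L libraries are given with and without L2, and those of P against D with and without P2. The ranking of genes by similar course used every library.

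In dark mycelium Gglean008392 had 50.7, 31.2 and 50.3 CPM in D1, D2 and D3, from 1206, 865 and 1289 reads. After 1 h of light it had 48.8, 1.77 and 9.5 CPM in L1, L2 and L3, and in primordia it had 0.529, 0.761 and 0.60 CPM in P1, P2 and P3, from 11, 18 and 14 reads. The 3 dark libraries were all high and close to each other, the 3 primordia libraries were all low, and the lit libraries spread over most of the distance between them. Its mean was 44.1 ± 11.1 CPM in dark mycelium, 20.0 ± 25.2 CPM in lit mycelium and 0.630 ± 0.119 CPM in primordia (SD, n = 3 each).
Gglean002445 had 15.8, 8.41 and 10.0 CPM in D1, D2 and D3, from 376, 233 and 257 reads. It had 6.04, 0.654 and 3.61 CPM in L1, L2 and L3, and 0.0962, 0.127 and 0.257 CPM in P1, P2 and P3, from only 2, 3 and 6 reads. Its lit libraries thus all lay below the dark libraries and above the primordia libraries. Dark, lit and primordia means were 11.4 ± 3.88, 3.44 ± 2.70 and 0.160 ± 0.0856 CPM (SD, n = 3 each).

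**Figure D1:**
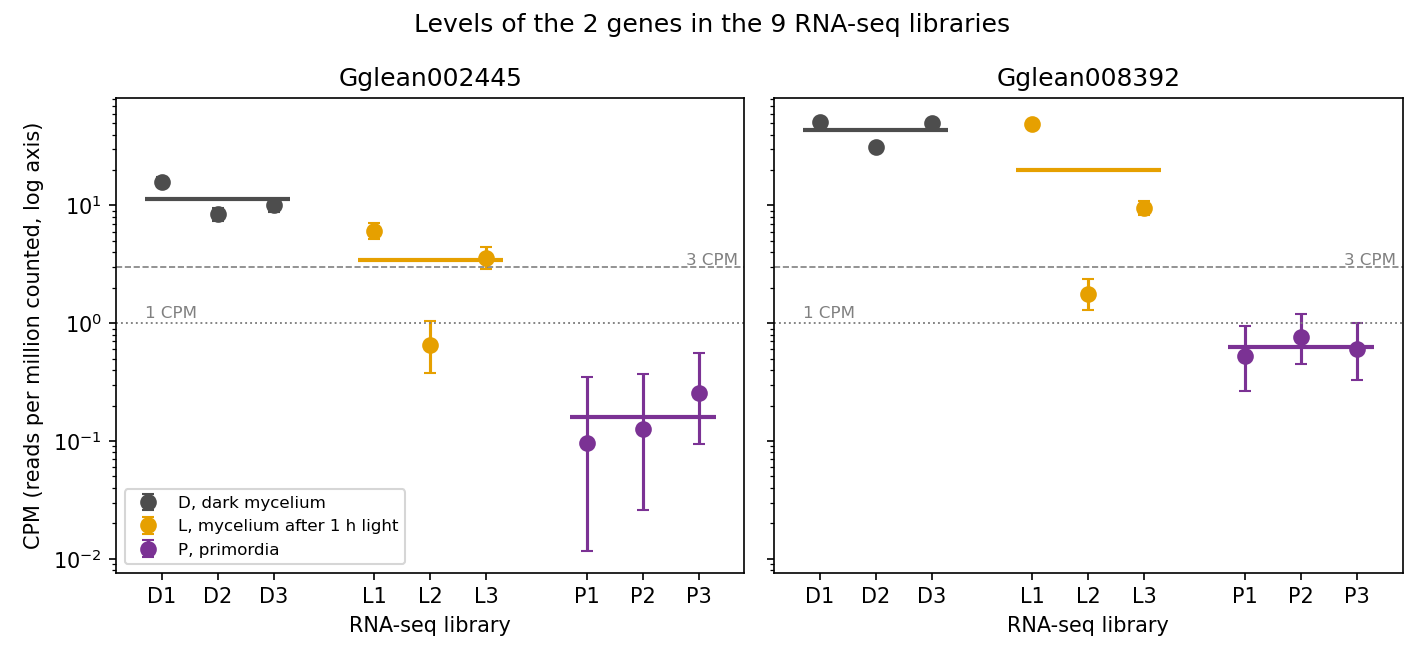
CPM of Gglean002445 and Gglean008392 in the 9 RNA-seq libraries on a log axis, with 1 point per library, the group mean as a horizontal line and the 95% exact Poisson interval of the count as a bar. The dark libraries lie above 3 CPM and the primordia libraries below 1 CPM by the rule, and L2 is the lowest lit library of both genes, at 0.654 and 1.77 CPM.

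Since levels in D and P chose these genes, the size of their difference is a description. P differed from D in tissue, light and day of sampling together, and these cannot be told apart. The mean of P was 1.40% of the mean of D for Gglean002445 and 1.43% for Gglean008392. The share of Gglean002445 rests on 11 reads in P and was 0.843%, 1.11% and 2.26% in P1, P2 and P3. Whether both genes kept the same part of their dark level is therefore not settled. On the log2 scale edgeR gave a fold change of -6.23 for each in P vs. D (SE 0.54 for Gglean002445 and 0.38 for Gglean008392). In this contrast edgeR called 1.97% of all genes tested lower and DESeq2 5.75%, the 2 genes among them with each tool, and nothing is read from these calls, since the rule used the same libraries. Calls needed a Benjamini-Hochberg adjusted p no higher than 0.05 together with a fold change over 1.2. Every P library lay below every D library for 9.8% of the genes tested, and for the 2 genes by the rule. Without P2 the log2 fold changes were -6.10 for Gglean002445 and -6.41 for Gglean008392, and the rule applied without P2 gave the same 2 genes.
Low counts set how exactly the level in primordia is known. For Gglean008392 the 95% exact Poisson interval of the CPM was 0.264 to 0.946 in P1, 0.451 to 1.2 in P2 and 0.328 to 1.01 in P3. In P2 and P3 it thus reached past 1 CPM. For Gglean002445 the interval ran up to 0.347, 0.371 and 0.560 CPM in P1, P2 and P3. These intervals cover counting error only. Neither gene was without reads in any primordia library, and "off" here means below 1 CPM.

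The highest P library had 0.257 CPM against 8.41 CPM in the lowest D library for Gglean002445, and 0.761 against 31.2 CPM for Gglean008392. Just outside the limit in P stood Gglean008096, with 1.2 CPM in its highest P library and 13.7 CPM in its lowest D library, and Gglean000269, with 1.5 and 4.10 CPM. Just outside the minimum in D stood Gglean006444, with 0.986 CPM in its highest P library and 1.76 CPM in its lowest D library, and Gglean010401, with 0.944 and 1.76 CPM.
The pattern was rare in these libraries. At least 3 CPM in every dark library was found for 8676 genes, and below 1 CPM in every primordia library for 634 genes, of which 538 were also below 1 CPM in all D and L libraries. With the limit in P at 2 CPM in place of 1 CPM, 8 genes met the rule. With the groups exchanged (at least 3 CPM in every P library and below 1 CPM in every D library), 3 genes did. The rule gave 8 genes without P3, 4 without P1 and 3 without D3, the 2 genes among them each time. The 6 genes that met the rule only at 2 CPM all had 1 CPM or more in P3. Among these 6, P3 alone kept out only Gglean008096 and Gglean000269, which were below 1 CPM in P1 and P2. Gglean002446, Gglean006182, Gglean007911 and Gglean009265 also had 1 CPM or more in P1, and Gglean009265 in P2 too. The 8 genes found without P3 were therefore not the same set as the 8 genes found at 2 CPM.

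**Figure D2:**
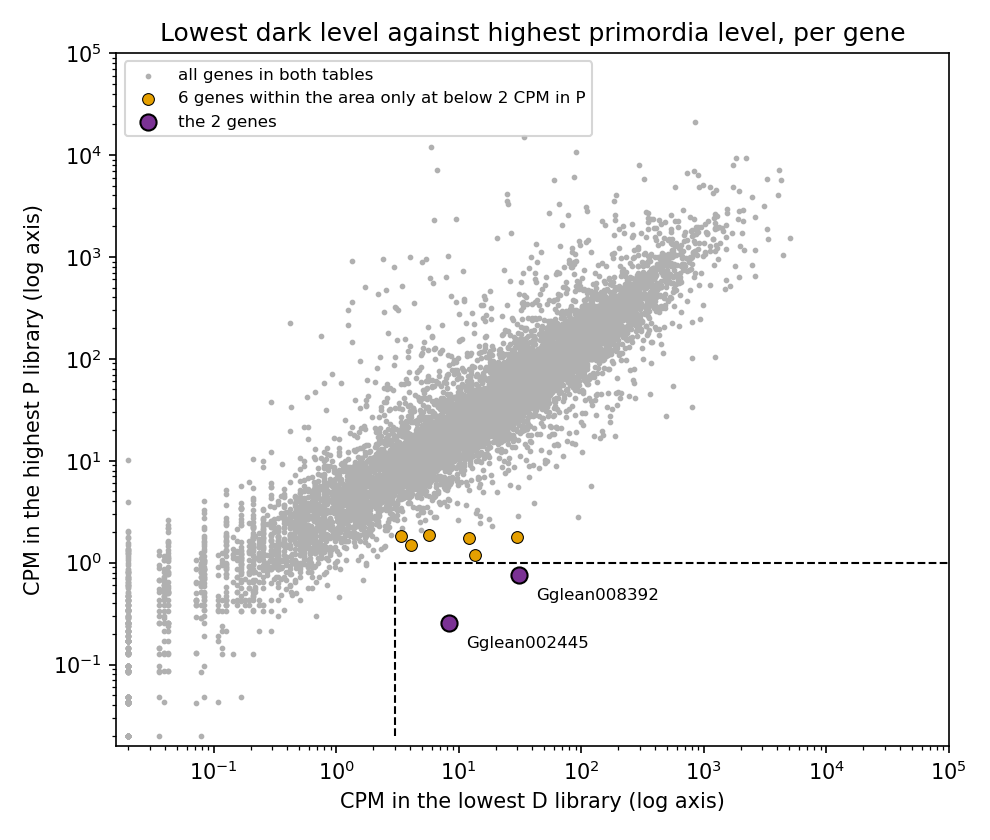
CPM in the lowest D library (horizontal, log axis) against CPM in the highest P library (vertical, log axis) for the 11118 genes, with values under 0.02 CPM drawn at 0.02. The dashed lines are the limits of the rule, and the 2 genes stand alone within them, with 6 genes above the limit that entered when it was set at 2 CPM.

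The lit libraries had no part in the choice, so the level after 1 h of light is a separate measurement. Both genes had a mean in L between those of D and P. Gglean002445 stood at 53.0%, 5.73% and 31.7% of its dark mean in L1, L2 and L3, and Gglean008392 at 111%, 4.02% and 21.6%. In both genes L1 was the highest lit library and L2 the lowest, with L1 over L2 at 9.24-fold for Gglean002445 and 27.6-fold for Gglean008392. The counts behind the last ratio were 1292 and 46 reads, a gap far above counting error.
By the thresholds of the rule, both genes were on in L1 and L3. In L2 Gglean002445 was below 1 CPM, with a 95% exact Poisson interval of 0.381 to 1.05 CPM from 17 reads, and Gglean008392 lay between the thresholds, with an interval of 1.30 to 2.36 CPM from 46 reads. Neither gene was below 1 CPM in all 3 lit libraries, and neither was at or above 3 CPM in all 3. Of the other 8674 genes with at least 3 CPM in every dark library, 8589 kept at least 3 CPM in all 3 lit libraries and 0 fell below 1 CPM in all 3. In L2, 6 of these 8674 genes (0.0692%) were below 1 CPM and 69 (0.795%) below 3 CPM.

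Levels after 1 h of light were compared with those in the dark in L vs. D, which shares its dark libraries with the rule. By the labels, D was sampled on day 28 and L on day 30, so that light and culture age cannot be told apart. Gglean002445 had a log2 fold change of -1.96 (SE 0.72, unadjusted p = 0.0296, adjusted p = 0.354 by edgeR). All 3 of its lit libraries lay below all dark libraries, as did those of 3.54% of the genes tested. For Gglean008392 the change was -1.35 on the log2 scale (SE 1.0, adjusted p = 0.643 by edgeR), and its lit and dark libraries overlapped, since L1 at 48.8 CPM exceeded D2 at 31.2 CPM.
Neither gene was therefore called in L vs. D (0 of 2), where edgeR called 0% of 10627 genes lower. The lowest adjusted p of any gene by edgeR was 0.0546, so that 0 of 2 says little about these genes. With DESeq2 and these thresholds, the study itself reported more genes lower in L vs. D than either tool called here. At an unadjusted p under 0.05, edgeR put 1 of the 2 genes lower, against 5.62% of all genes, and DESeq2 called 0 of the 2 with 1.85% of all genes called lower (adjusted p = 0.095 for Gglean002445 and 0.563 for Gglean008392). The size of the change depended on single lit libraries. Without L1 the log2 fold change of Gglean008392 was -3.21 (adjusted p = 0.162 from edgeR), and without L2 it was -0.81 (adjusted p = 0.676). For Gglean002445 it was -2.68 without L1 and -1.47 without L2 (adjusted p = 0.212 and 0.358 from edgeR). The number of libraries limits this comparison, and a p above the threshold does not show that light left the genes as they were.

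P and L also differed in tissue, length of light and day of sampling together, which cannot be told apart. Primordia and lit mycelium were compared in 1 fit of all 9 libraries, in which the primordia libraries are those of the rule. Choosing genes that are low in these libraries favours a lower level in P, so the calls and shares given here are a description. In both genes all 3 primordia libraries lay below all 3 lit libraries, as they did for 8.93% of the genes tested. The log2 fold change in P vs. L was -4.28 for Gglean002445 (SE 0.86, adjusted p = 0.143 from edgeR) and -4.90 for Gglean008392 (SE 1.07, adjusted p = 0.194 from edgeR). With the replicate number as a block in this fit, it was -3.99 for Gglean002445 and -4.095 for Gglean008392 (adjusted p = 0.185 and 0.344 from edgeR). The block then also covers the D libraries. Thus neither gene was called by edgeR with or without the block (0 of 2), which called 0.0187% of the genes lower. At an unadjusted p under 0.05, edgeR put both genes lower, against 5% of all genes. DESeq2 called both genes lower (adjusted p = 2.7e-05 and 5.7e-06), with 1.51% of all genes called lower.
The call by edgeR changed when L2 alone was left out. Without it both genes were called lower in P vs. L (log2 fold change -4.77 and -5.44, adjusted p = 0.0264 and 0.0295 from edgeR), and 0.177% of the genes tested were called lower. Without L2 and P2 together, which was tried after seeing the data, the adjusted p from edgeR was 0.05001 for Gglean002445, just above the threshold, and 0.0543 for Gglean008392. U10 and GAPDH moved with this library too, with U10 at 5540 CPM in L2, its highest of the lit libraries, and GAPDH at 891 CPM, its lowest. What part these differences of the library had in the result was not tested.

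**Figure D3:**
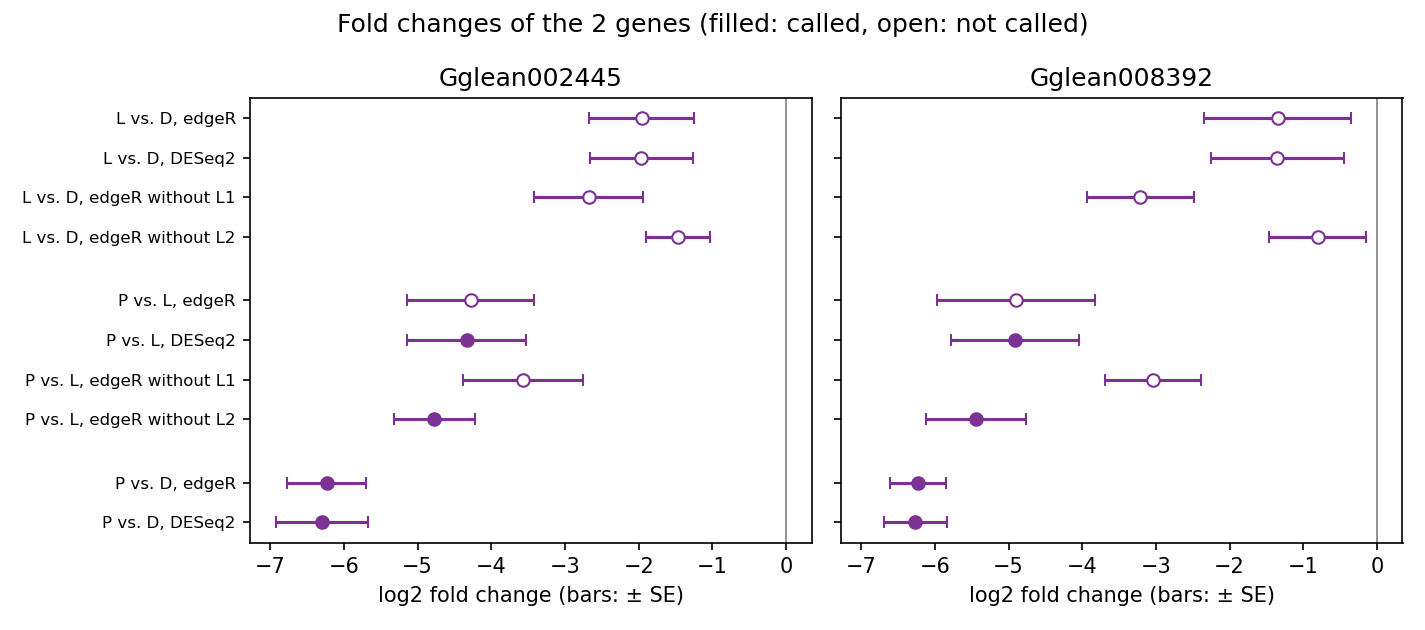
Log2 fold changes of Gglean002445 and Gglean008392 in L vs. D, P vs. L and P vs. D by edgeR, by DESeq2 and by edgeR without light replicate 1 or 2, with bars for ± SE. Filled points passed the thresholds and open points did not, and in P vs. L both genes were called by DESeq2 and by edgeR without L2 only.

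The order of the means was D, then L, then P for both genes. The libraries of L and D did not overlap in Gglean002445 and overlapped in Gglean008392, and neither gene was called in L vs. D. The libraries of P and L did not overlap in either gene, and the call depended on the tool and on the libraries used. The libraries of D and those of L had the same order in both genes (D1, D3, D2 and L1, L3, L2 by falling level), and those of P did not. The order in D is not settled, since 95% exact Poisson intervals overlapped for D1 and D3 in Gglean008392 (50.7 and 50.3 CPM). They also overlapped for D2 and D3 in Gglean002445, and among the P libraries of both genes. The level of Gglean008392 over that of Gglean002445 within a library was 3.21, 3.71 and 5.02 in D1 to D3, 8.08, 2.71 and 2.63 in L1 to L3, and 5.5, 6.0 and 2.33 in P1 to P3. L1 thus stood out as the library where Gglean008392 was high relative to Gglean002445. The ratios in P rest on the 11 reads of Gglean002445 there, and the lengths of the genes are not at hand, so that the ratio is compared between libraries only.

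The 6 genes that met the rule at 2 CPM in P showed the same order of lit libraries. In all 6, as in the 2 genes, L1 was the highest and L2 the lowest lit library, and L2 lay below every dark library. Over all 8676 genes with at least 3 CPM in every dark library, L1 was the highest and L2 the lowest in 30.0%, and L2 lay below every dark library in 23.3%. The 6 genes were described after their values were seen. Among the 209 genes called lower in P vs. D by edgeR, which include the 2 genes, L2 was the lowest lit library in 182 (87.1%), so that this order was not particular to the 2 genes. How far L2 lay from the primordia libraries differed among the 6. Gglean008096 stood at 17.6% of its dark mean in L2 and at 2.32% to 7.23% in P, whereas Gglean007911 stood at 3.17% in L2 and at 1.24% to 4.67% in P, so that its lit library L2 lay within the range of its primordia libraries. L2 lay above all primordia libraries in 4 of the 6, as in the 2 genes.

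**Figure D4:**
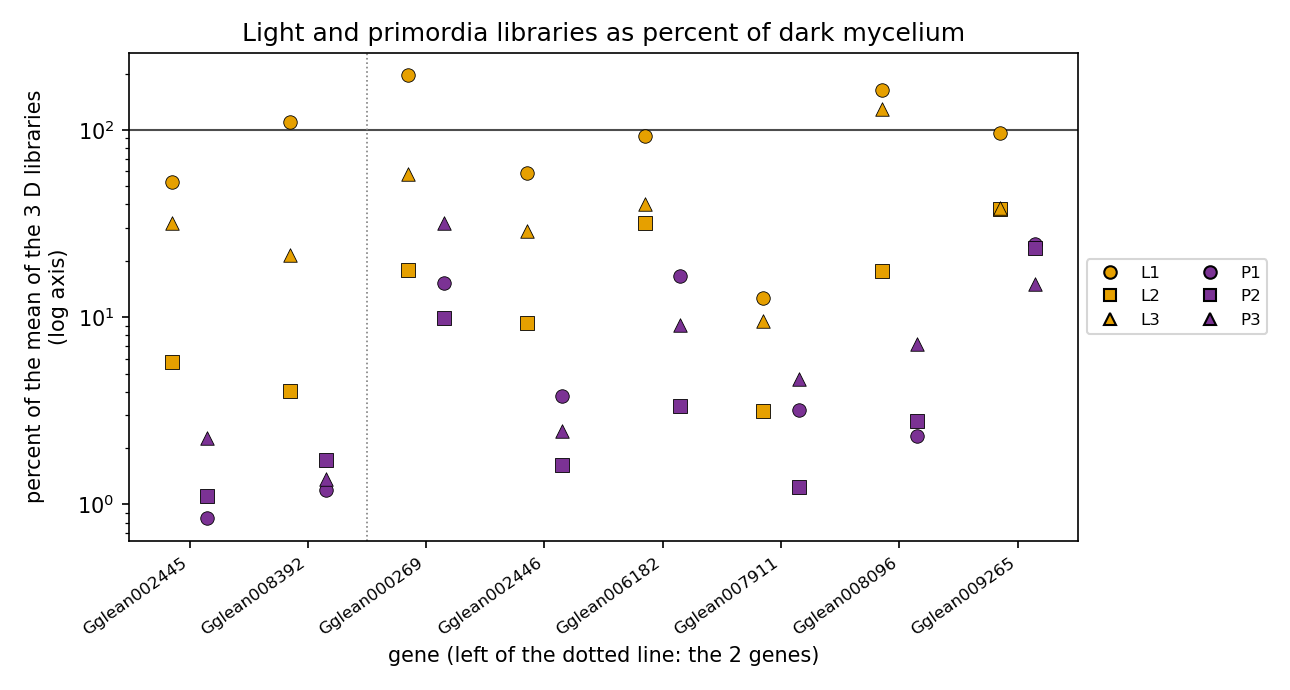
Level in each lit (orange) and primordia (purple) library as a percent of the mean of the 3 dark libraries, on a log axis, for Gglean002445 and Gglean008392 (left of the dotted line) and the 6 genes that met the rule at 2 CPM in P. Circles, squares and triangles are replicates 1, 2 and 3, the line at 100 is the dark mean, and the square of L2 is the lowest lit library in each gene.

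The IDs of the 2 genes are far apart in number and neither has the other as a neighbour. Genes with nearby numbers were picked for description after their values were seen. The next number after Gglean002445, Gglean002446, was 1 of the 6 genes above. It had 69.2, 29.9 and 42.1 CPM in D1 to D3, 27.8, 4.39 and 13.5 CPM in L1 to L3, and 1.78, 0.761 and 1.16 CPM in P1 to P3. Its dark, lit and primordia libraries did not overlap, and D1 and L1 were its highest and L2 its lowest libraries of D and L, as in Gglean002445. Whether IDs with consecutive numbers lie next to each other, overlap or are copies of each other cannot be read from the files, and no source used here says whether the counting used strand. If they overlap, how reads of the shared part were counted is not known.
Around Gglean008392 the neighbours in number behaved otherwise. Gglean008391 and Gglean008390 were below 1 CPM in all 9 libraries. Gglean008393 had 4.91, 8.48 and 11.5 CPM in D1 to D3, 10.7, 9.70 and 7.01 CPM in L1 to L3 and 4.86, 4.99 and 5.66 CPM in P1 to P3, so that it stayed on in primordia. Of the 10 neighbours within 5 numbers, Gglean008397 was the one whose primordia libraries all lay below its dark and lit libraries, with 11.3 to 20.2 CPM in P, 29.5 to 75.9 CPM in L and 34.4 to 61.4 CPM in D.

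Genes with the most similar course over the 9 libraries were ranked by Pearson's r of log2(CPM + 0.5) among 9885 other genes that reached 3 CPM in some library. The ranking was added after the values were seen. It is a description, since the libraries fall into the 3 groups and D and P chose the 2 genes. The closest to both was Gglean006242, with r = 0.996 to Gglean008392 and r = 0.988 to Gglean002445. It had 61.7, 41.1 and 62.6 CPM in D1 to D3, 49.2, 8.0 and 20.9 CPM in L1 to L3, and 3.75, 3.55 and 3.86 CPM in P1 to P3, so that it had the same shape but was not off in primordia. Gglean002446 came second for Gglean002445 (r = 0.988), and the r between the 2 genes themselves was 0.982, the 4th highest for Gglean002445 and the 5th highest for Gglean008392.
Second for Gglean008392 (r = 0.989) came Gglean000957, which the study codes D2 (not to be taken for the library D2) and which encodes a delta(12) fatty acid desaturase, an enzyme that adds a double bond to oleic acid. It was the only gene of the highest 5 of either list that the study describes. It had 101, 105 and 107 CPM in D1 to D3, 129, 16.2 and 55.3 CPM in L1 to L3, and 12.3, 9.39 and 8.84 CPM in P1 to P3. Like Gglean008392 it was above its dark mean in L1 and low in L2, but it stayed above 3 CPM in all primordia libraries. The 13 genes that the study lists as lowered had 1.59 CPM or more in every primordia library, the lowest value being that of the gene coded D7, an alpha/beta hydrolase.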

How the data were processed

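The deposited raw counts were used, which the authors obtained by cutadapt trimming, STAR alignment to the genome of SP-C and counting per gene in HTSeq 0.6.1. Both tables hold 11161 genes, and the D counts stand in each. Their fold changes, p-values and adjusted p-values, made by the authors, and 12 further columns of values per library were not used. The peak lists were not used.

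Genes were filtered with filterByExpr, which both genes passed, scaled by TMM and tested with edgeR 4.0.16 (quasi-likelihood), and with DESeq2 1.42.0 beside it, in R 4.3.3. Adjustment was over the genes that passed the filter in edgeR, and over the genes that its own default filter kept in DESeq2. The SE of edgeR is the unshrunken log2 fold change over the square root of F, so it is no evidence beyond the p. CPM use unscaled totals. With these totals in edgeR, the median log2 fold change over all genes became 0.23 (0.016 with TMM) in L vs. D, while for P vs. D it became 0.17 (0.068 with TMM). Python 3.11.15 was used for levels and figures. The procedure was tested on simulated data. These held no library that stood apart as L2 and P2 did, so the test does not cover that.

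The 2 genes and the lists were chosen with earlier results of these data known. By the naming rule every gene of the group, GAPDH, U10, U15 and the genes next to the thresholds are named, and others are said to be chosen after their values were seen. A block by replicate number was an alternative to the main fits, which had none. Between P and L, deviations from the group means correlated at 0.137, 0.512 and 0.315 for numbers 1, 2 and 3. L1 and P3, of unlike number, correlated at 0.369, and the other unlike pairs of P and L at 0.065 or less. Whether equal numbers are pairs in P and L is therefore not known. In the comparisons with D, some correlations of equal numbers were negative.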

Additional observations from a re-analysis of the deposited data

How the results depend on the processing

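At below 0.5 CPM in P the rule kept 1 gene and at below 2 CPM it gave 8. Other thresholds in D and other scalings gave 2. Leaving out 1 library gave 2 to 8. Between 0 and 2 genes were neither on nor off in every lit library when 1 lit library was left out, 0 being the value without L2. In P vs. L, DESeq2 called 2, and leaving out 1 library in edgeR gave 0 to 2 called. The cause was not tested. No other alternative moved a count of the 2 genes called, which was 0 under each in L vs. D. Calls in P vs. D, the contrast of the rule, are no support, and those in P vs. L share its primordia libraries. No log2 fold change turned its sign. They ran from -2.68 to -1.47 and -3.21 to -0.81 in L vs. D, from -6.75 to -5.85 and -6.46 to -6.06 in P vs. D, and from -4.79 to -3.57 and -5.60 to -3.04 in P vs. L, for Gglean002445 and Gglean008392.

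With the replicate number as a block, 0 of the 2 genes were called in L vs. D, 2 were called in P vs. D and 0 in P vs. L (adjusted p = 0.185 and 0.344 from edgeR). With P and L libraries alone, an alternative added after seeing the data, 0 were called with or without the block. With the block, the log2 fold changes were then -4.057 for Gglean002445 and -3.897 for Gglean008392 (adjusted p = 0.168 and 0.3295 from edgeR). Over all genes the block left 55 lower and 34 higher in P vs. D, against 209 and 141, where equal numbers are not known to be pairs. Depth limits the level in primordia, where Gglean002445 had 11 reads in all.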
